A study of Mus musculus with 4 samples.

Results

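The set described here is the TGF-beta and BMP pathway in brain endothelial cells (ECs): 34 listed genes out of 21851 protein-coding genes outside the mitochondrial chromosome in the GENCODE M21 basic annotation (mm10). The genes were listed by name, by their role in the pathway, and all 34 were found in the annotation. RNA polymerase II (Pol II) was measured by ChIP-seq in flow-sorted mouse brain ECs, and each library was deposited as a list of called peaks. The old WT Cre group (genotype CdH5CRE, the endothelial Cre driver without deletion of Klf4, 20 to 23 mo in the study's cohorts) had 2 libraries, and the young EC-K4KO group (genotype ECK4KO, Klf4 deleted by the tamoxifen-inducible Cdh5 driver, 4 to 6 mo) had 2 libraries. Both groups carried the driver and received tamoxifen. Genotype and age changed together, so they cannot be told apart in any comparison below. The study's methods call the libraries of a group biological replicates, while the labels do not name the animals behind each. The libraries are written below as O1 and O2 (old WT Cre, replicates 1 and 2) and K1 and K2 (young EC-K4KO, replicates 1 and 2).

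TGF-beta and BMP ligands are secreted dimers that bring type II and type I receptor kinases together, and co-receptors such as endoglin and betaglycan help to present them. The activated type I receptor phosphorylates receptor-regulated Smads, which join Smad4, enter the nucleus and bind target genes such as those encoding the Id proteins. Inhibitory Smads, Smurf ubiquitin ligases and the corepressors Ski and SnoN (the product of Skil) limit the signal. In ECs, BMP receptors such as ALK1 and BMPR2 are known for keeping vessels quiescent, and TGF-beta passes between ECs and mural cells at the vessel wall.

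The libraries differed widely before any gene was considered. They held 22705175 to 65734178 fragments, and K2, with the fewest fragments, had the most peaks (235591, against 35638 to 78851 in the other 3). A promoter peak was one that touched the 1500 bp on either side of a transcription start site (TSS). Of 12 endothelial marker genes, 4 and 5 had one in O1 and O2, 0 in K1 and 9 in K2, and Pecam1, Tek and Ly6c1 had none in any library. Of 31 markers of mural cells, astrocytes, microglia, oligodendrocytes and neurons, 8, 4, 4 and 22 had a promoter peak in the same order of libraries (25.8, 12.9, 12.9 and 71.0%, against 25.6, 24.5, 10.6 and 67.5% of all protein-coding genes), and the part of other cells or of peak calling in the results below was not tested. Klf4 itself had a promoter peak in K1 and K2 but not in O1 or O2, as 3.1% of all genes did. This does not check the deletion, since where the peaks lay relative to the deleted exons was not examined.

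DNA under or near the peaks that carry the results is given first. At Smad1 and Tgfb1, which had promoter peaks in K1 and K2 but not in O1 or O2, the stretch shown is where the peaks of those 2 libraries overlap. The Id1 stretch is the overlap of the peaks of O2 and K2, whose summits were 6 bp apart. The Tgfbr3 stretch is the part of an intron under a peak in 3 libraries, and 57.1% of its bases were soft-masked as repeat sequence. Small letters below do not mark repeats. The Tgfbr1 stretch is the 250 bases before the RefSeq start of the gene, of which 54 bases at the 3′ end lay under the member promoter peak with the highest fold enrichment (K2) and 15 at the 5′ end under another Tgfbr1 peak; the bases between, with the marked motif, lay under no peak. Sequences are mm10 (RefSeq GRCm38.p6), written 5′ to 3′ on the strand of the gene. Capitals mark the letters of 2 Smad-binding motifs, CAGAC (the Smad box, or its reverse complement GTCTG) and GGCGCC (a GC-rich Smad element), and are no measure of binding.
Smad1, intron, chr8:79398385-79398534, minus strand: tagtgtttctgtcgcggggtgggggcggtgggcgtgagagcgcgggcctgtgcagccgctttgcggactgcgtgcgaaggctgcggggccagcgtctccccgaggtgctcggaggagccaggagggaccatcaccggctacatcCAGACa
Tgfb1, coding exon and intron, chr7:25688205-25688350, plus strand: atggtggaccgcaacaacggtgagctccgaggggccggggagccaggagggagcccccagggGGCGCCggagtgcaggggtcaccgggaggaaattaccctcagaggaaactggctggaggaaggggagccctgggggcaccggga
Id1, coding exon, chr2:152736342-152736516, plus strand: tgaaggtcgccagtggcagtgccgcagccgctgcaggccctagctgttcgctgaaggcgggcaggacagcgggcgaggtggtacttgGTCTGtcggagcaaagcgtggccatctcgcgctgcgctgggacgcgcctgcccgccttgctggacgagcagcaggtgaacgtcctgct
Tgfbr3, intron, chr5:107248481-107248636, minus strand: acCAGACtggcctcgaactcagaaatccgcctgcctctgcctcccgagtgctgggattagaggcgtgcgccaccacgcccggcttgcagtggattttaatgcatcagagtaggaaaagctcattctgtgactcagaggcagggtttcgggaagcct
Tgfbr1, upstream of the gene, chr4:47352972-47353221, plus strand: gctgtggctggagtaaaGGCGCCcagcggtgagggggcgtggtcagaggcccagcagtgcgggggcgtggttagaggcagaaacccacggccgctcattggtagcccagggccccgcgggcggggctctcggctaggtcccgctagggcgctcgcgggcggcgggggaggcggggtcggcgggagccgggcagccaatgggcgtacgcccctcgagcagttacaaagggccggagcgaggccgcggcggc

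Pol II peaks at the promoters of the pathway differed more between the 2 young EC-K4KO libraries than between the group means. In bulk cells, fewer cells with Pol II at a gene and less Pol II per cell cannot be told apart. In O1, 8 of 34 members had a promoter peak (23.5%, against 25.6% of all protein-coding genes). In O2, 11 members had one (32.4%, against 24.5%). K1 had 3 (8.82%, against 10.6%). K2 had 30 (88.2%, against 67.5%). The 2 young EC-K4KO libraries were thus the lowest and the highest of the 4, on either side of both old WT Cre libraries.

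The group means were 9.5 ± 2.12 members (old WT Cre) and 16.5 ± 19.1 (young EC-K4KO; SD, n = 2), a difference of 7.0 against a pooled SD within groups of 13.6. With 2 libraries against 2, an exact two-sided permutation test cannot give a p below 0.3333, so no test of the groups was made. When every list was cut to the 35638 peaks with the lowest q, the members with a promoter peak numbered 5, 11, 3 and 8 (14.7, 32.4, 8.82 and 23.5%, against 11.7, 22.7, 10.6 and 27.7% of all genes), and the difference turned to -2.5. The members of K2, above all genes with the full lists, were below them at equal length. Without K2 it was -6.5.

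The members are long genes, with a median of 61417 bp (1160 to 386945 bp) against 17380 bp over all protein-coding genes. The share of all genes was therefore also weighted to the lengths of the members over 10 length classes, as a description. This raised it to 30.2, 30.6, 12.8 and 75.4% for O1, O2, K1 and K2, or 10.3, 10.4, 4.36 and 25.6 genes in a set of this size. The members lay below that share in O1 and K1 and above it in the other 2 libraries.

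**Figure D1:**
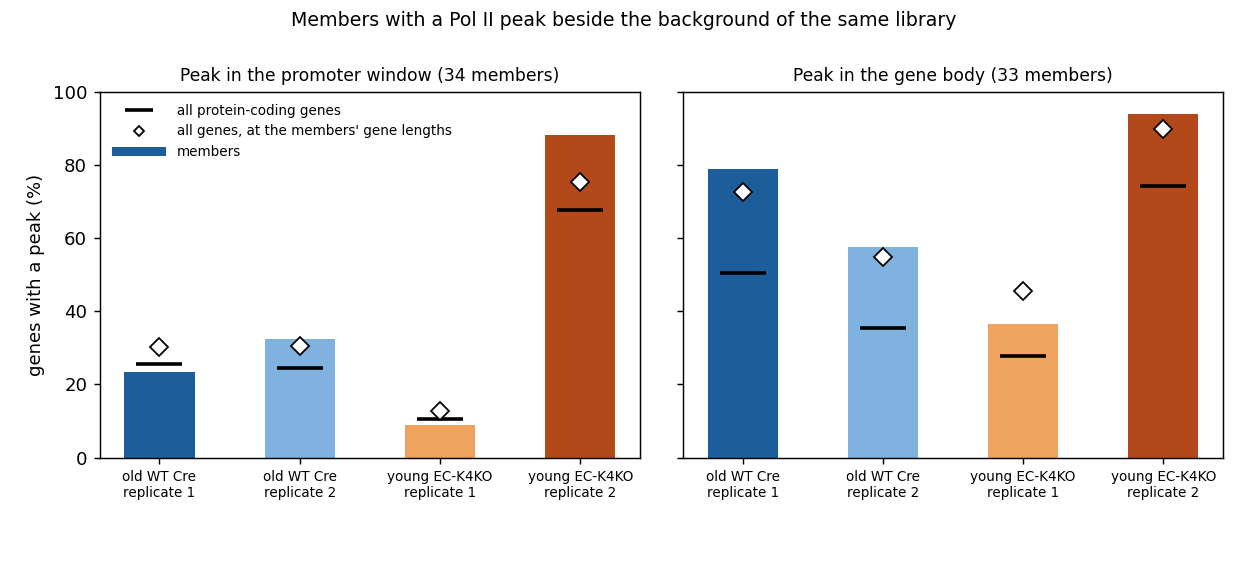
Percent of genes with a Pol II peak in each of the 4 libraries (x axis), in the promoter window (left) and in the gene body (right). Bars are the members, black lines all protein-coding genes and diamonds all genes weighted to the members' gene lengths; young EC-K4KO replicates 1 and 2 hold the lowest and the highest bar in both panels, and the body bars lie nearer to the diamonds than to the lines in both old WT Cre libraries.

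No member had a promoter peak in all 4 libraries (2.22% of all genes did; 3.15% at the lengths of the members). Bmpr2, Tgfbr3 and Smad7 were the 3 members with one in 3 libraries or more (13.1% of all genes), each in both O libraries (10.1% of all genes) and in K2. Exactly 2 libraries held a peak for 14 members (25.2% of all genes), and exactly 1 library for 15 (36.3%). For 2 members, Smad9 and Id2, no library had one, against 25.4% of all genes (18.2% at the members' lengths). O1 and O2 but neither K library held a peak for 0 members (0.787% of all genes). K1 and K2 shared 2 members, Tgfb1 and Smad1 (9.13% of all genes were shared), and as neither O library had a peak there, these were also the 2 members split by group in that direction (3.1% of all genes).

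**Figure D2:**
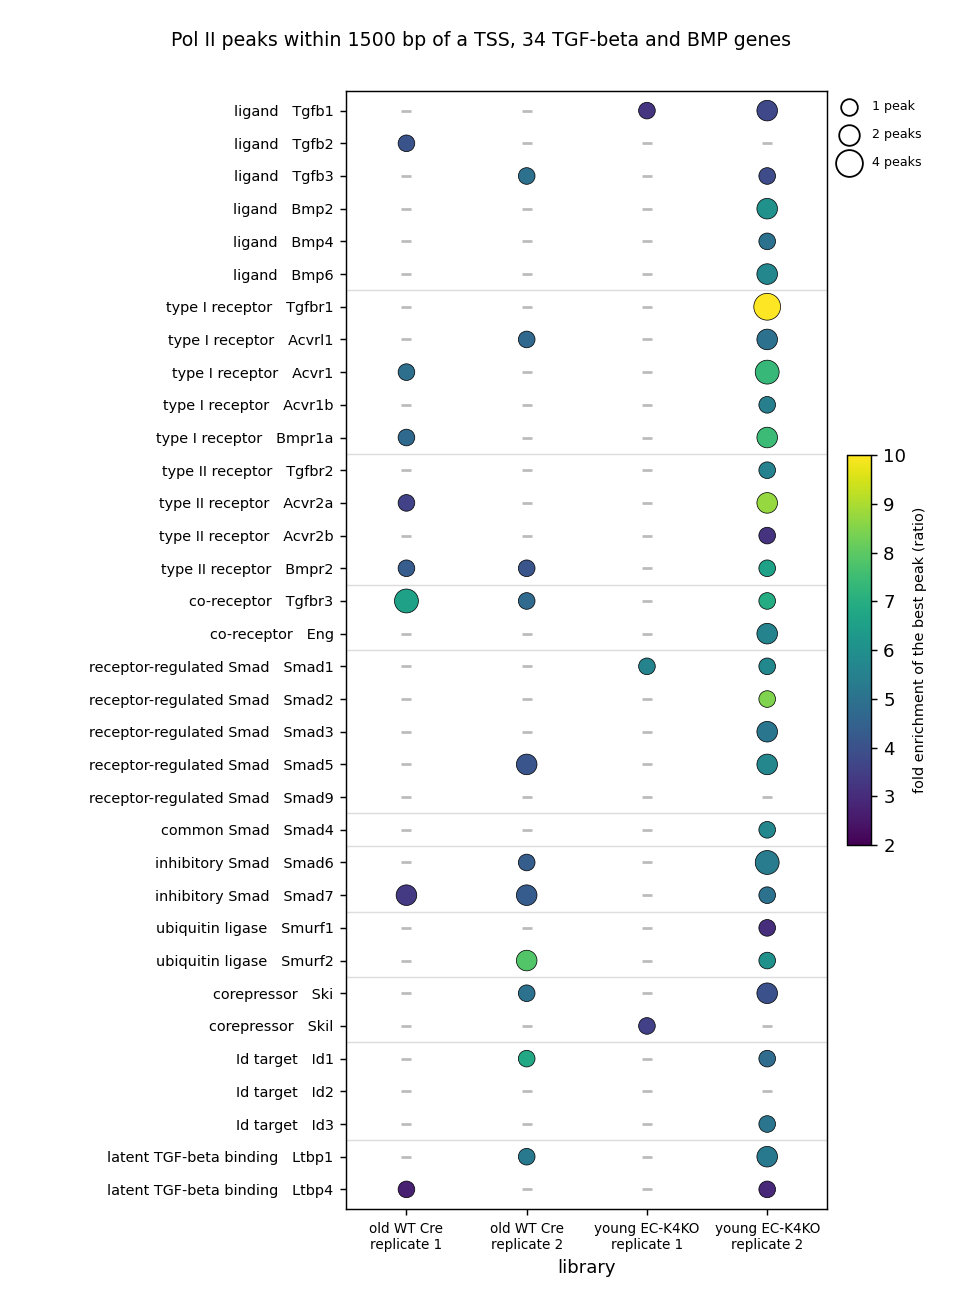
Promoter peaks of the 34 members (y axis, grouped by role) in the 4 libraries (x axis). Circles mark a called peak, coloured by the fold enrichment of the best (lowest-q) peak and sized by the number of peaks, and dashes mark no called peak; the young EC-K4KO replicate 2 column is filled for 30 members and the replicate 1 column for 3.

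The counts by role below stand beside the shares of all genes in O1, O2, K1 and K2 (25.6, 24.5, 10.6 and 67.5%). Among the 6 ligands, 1, 1, 1 and 5 had a promoter peak in these libraries. Tgfb1, the TGF-beta isoform made by ECs and many other cells, had a peak of 3.23-fold enrichment at 1280 bp from the TSS in K1. In K2 it had peaks of 3.72-fold at 498 bp and 3.35-fold at 1210 bp, while both old WT Cre libraries had none. Fold enrichment here is the fragment pileup at the summit over the local background that the peak caller estimated within the same library, as no input was used. The Tgfb1 peaks were weak: the one in K1 ranked, by its q, at the 29.8 percentile of the best (lowest-q) promoter peaks of all genes in that library, and no Tgfb1 peak passed a threshold of 4-fold. The split of Tgfb1 by group was also lost at a q of 1e-05, with lists of equal length and in windows of 500 and 3000 bp.

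Tgfb2, a TGF-beta isoform, had 1 promoter peak, of 4.04-fold at 104 bp in O1, and was the one ligand without any in K2. Tgfb3, the remaining isoform, had a peak of 4.95-fold at -448 bp in O2 and of 3.84-fold at 1384 bp in K2, so these peaks lay on opposite sides of the TSS. The BMP ligands had promoter peaks in K2 alone. Their best peaks there had 6.03-fold enrichment at Bmp2, 4.97-fold at Bmp4 and 5.70-fold at Bmp6, the last of which encodes a BMP secreted by ECs.

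All 11 receptors and co-receptors had a promoter peak in K2 (67.5% of all genes) and none did in K1 (10.6%), with 5 and 3 in O1 and O2 (25.6 and 24.5%). Tgfbr1, which encodes the type I TGF-beta receptor ALK5, had 4 peaks in K2 and none in the other 3 libraries. The highest of the 4 had 10-fold enrichment with its summit at -2 bp from the nearest TSS, partly over the GC-rich stretch printed above (74.8% GC), and ranked at the 96.4 percentile of that library. Another stood at 240 bp with 7.74-fold, and the remaining ones had 5.57-fold at -358 bp and 3.18-fold at -1342 bp. Acvrl1, which encodes the endothelial BMP receptor ALK1, had a peak of 4.67-fold at 91 bp in O2 and a best peak of 5.02-fold at -419 bp in K2, and none in the other library of either group.

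Acvr1, which encodes the type I BMP receptor ALK2, had a peak of 4.88-fold at 1420 bp in O1. In K2 its best promoter peak had 7.35-fold at 239 bp, and all 3 of its promoter peaks there were also within 1500 bp of a TSS of Upp2, so they cannot be given to Acvr1 alone. Bmpr1a, a type I BMP receptor, had 4.70-fold at 261 bp in O1 (chr14:34460176-34460398) and 7.46-fold at 680 bp in K2 (chr14:34501688-34502190). These distances are from different TSSs, so the peaks were not at the same promoter. The peak in O1 lay mostly in soft-masked repeat sequence and was the sole promoter call of a member to be lost when such peaks were left out. Acvr1b, the type I activin receptor, had 5.42-fold in K2 alone.

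Among type II receptors, Acvr2a, an activin and BMP receptor, had 3.57-fold at 710 bp in O1 and 8.74-fold at -391 bp in K2, the latter at the 81.7 percentile of its library. Bmpr2, the type II BMP receptor, had a peak in 3 libraries. Its fold enrichment was 4.32 at 1298 bp in O1, 4.10 at 184 bp in O2 and 6.56 at 224 bp in K2. The last 2 peaks overlapped each other, while the peak of O1 overlapped neither. Tgfbr2, the type II TGF-beta receptor, and Acvr2b, an activin receptor, had promoter peaks in K2 alone, of 5.54-fold and 3.18-fold.

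The co-receptor Tgfbr3 (betaglycan) had promoter peaks in 3 libraries too. O1 had 3 of them, of 6.57-fold at -1456 bp, 3.94-fold at 388 bp and 3.38-fold at 994 bp. O2 had 1 of 4.72-fold at 753 bp, and K2 had 1 of 6.91-fold at 90 bp. The first of these was the highest-ranked member promoter peak of O1, at the 97.8 percentile, and it lay outside the gene. Eng (endoglin), the co-receptor most typical of ECs, had peaks of 5.57-fold at 323 bp and 4.24-fold at -165 bp in K2, and none in the other 3 libraries, the old WT Cre libraries among them.

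Of the 8 Smad genes, 1, 3, 1 and 7 had a promoter peak in the 4 libraries in the same order. Smad1, which transduces BMP signals, had peaks that nearly coincided in the young EC-K4KO libraries. Its peak had 5.58-fold enrichment with a pileup of 20 fragments at 1073 bp in K1, and 5.72-fold with 17 fragments at 1076 bp in K2, so the summits lay 3 bp apart in the intronic stretch printed above. Neither old WT Cre library had a Smad1 promoter peak, and the peak of K1 was the highest-ranked of its 3 member peaks, at the 91.9 percentile. Smad1 kept this split at 4-fold enrichment and at a q of 1e-05, but not in a window of 500 bp, which leaves the peak outside, nor with lists of equal length.

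Smad5, which also transduces BMP signals, had promoter peaks in O2 (up to 4.10-fold) and K2 (up to 5.69-fold), and Smad9, the remaining BMP-regulated Smad, had none in any library. Smad2 and Smad3, which transduce TGF-beta and activin signals, had peaks in K2 alone, of 8.45-fold and up to 5.15-fold. Smad4, the common partner, likewise had 1 of 5.71-fold there.

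The inhibitory Smads are themselves targets of the pathway. Smad6 had a peak of 4.37-fold at 151 bp in O2 and a best peak of 5.34-fold at -869 bp in K2. Smad7 had 2 peaks in each old WT Cre library. They had 3.04-fold at -813 bp and 3.33-fold at 243 bp in O1, and 4.04-fold at -510 bp and 4.31-fold at 354 bp in O2. K2 had 1 Smad7 peak, of 4.99-fold at -502 bp. Every Smad7 peak was under 5-fold, and K1 had none.

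The remaining negative regulators differed from one another. Smurf2, a ubiquitin ligase that targets receptors and Smads, had the highest-ranked member peak of O2, of 7.83-fold at -990 bp (96.7 percentile), with another of 4.85-fold at 355 bp, and a peak of 6.02-fold at 174 bp in K2. Smurf1, its relative, had 3.05-fold at 1457 bp in K2 alone. Ski had 4.98-fold at -806 bp in O2 and up to 4.05-fold in K2. Skil was the one member with a promoter peak in K1 (3.51-fold at 642 bp) and in no other library.

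Id1, a BMP target that encodes a dominant-negative helix-loop-helix protein, had a peak of 6.80-fold at 181 bp in O2 and of 4.80-fold at 175 bp in K2, and none in the other library of either group. Id3 had 1 of 5.10-fold in K2, and Id2 had none. Of the latent TGF-beta binding proteins, which hold the ligand in the matrix, Ltbp1 had 5.22-fold in O2 and up to 5.22-fold in K2. The Ltbp1 peak of O2 (chr17:75178488-75178745) and the best of K2 (chr17:75006310-75006475) lay beside different TSSs of the gene. Ltbp4 had 2.70-fold in O1 and 2.88-fold in K2, the lowest best peaks of any member in those libraries.

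Where members had a peak, its height was near that of other genes in O1, O2 and K2 and lower in K1, where 3 members had one. The median best fold enrichment of the members was 4.18, 4.72, 3.51 and 5.48 in O1, O2, K1 and K2, against 3.94, 5.0, 4.16 and 5.81 over all genes with a promoter peak. The summits lay at a median of 874, 257, 1070 and 386 bp from the TSS in the members, against 368, 268, 328 and 277 bp over all genes. Within 500 bp of a TSS were 3 of 8, 8 of 11, 0 of 3 and 18 of 30 best summits of the members, against 59.6, 72.2, 61.6 and 67.6% over all genes. By the median, the best summits of the members thus lay farther from a TSS than those of all genes in O1, K1 and K2, and about as near in O2.

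**Figure D3:**
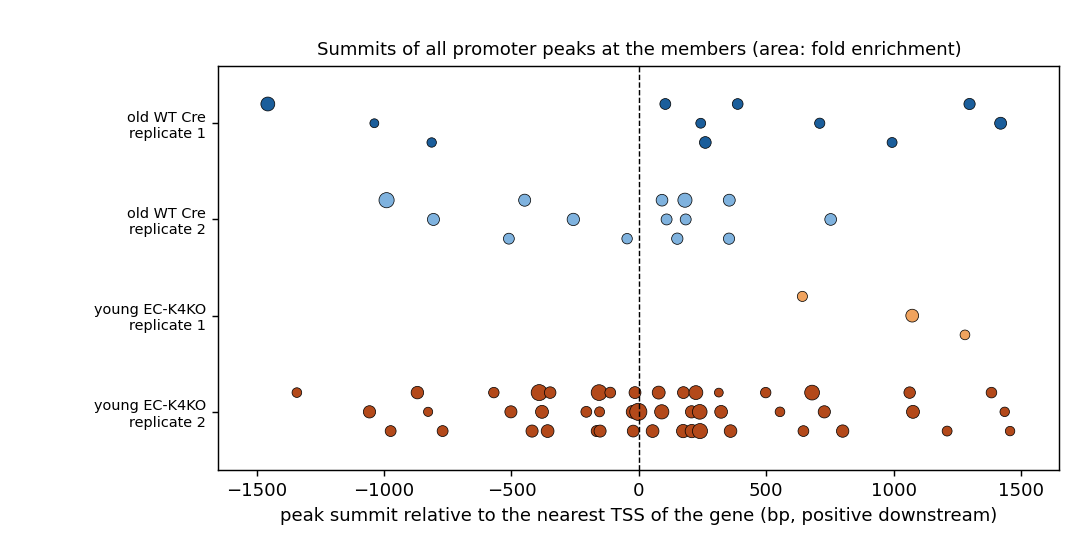
Distance of each member promoter peak's summit from the nearest TSS of its gene (x axis, bp, positive downstream) in the 4 libraries (y axis), with point area proportional to fold enrichment. The 3 summits of young EC-K4KO replicate 1 lie between 642 and 1280 bp, while those of old WT Cre replicate 2 and young EC-K4KO replicate 2 are spread on both sides of the TSS.

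Peaks of the same member in 2 libraries did not always overlap by position. Between the old WT Cre libraries, 2 of the 3 members with a peak in both had overlapping peaks (Tgfbr3 and Smad7, against 60.4% of all such genes). Between the young EC-K4KO libraries it was 2 of 2 (Tgfb1 and Smad1, against 66.4%). Across the groups, O2 and K2 had overlapping peaks at 9 of 11 members (against 74.6%), and O1 and K2 at 2 of 7 (Tgfbr3 and Ltbp4, against 64.5%). O1 and O2 each shared 0 members with K1, against 4.43 and 4.49% of all genes.

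Pol II peaks in the gene body, the annotated span outside the promoter windows, were found at more members. Id1 has no such body, which left 33 members and 20500 genes in all. A body peak was found at 26 members (78.8%, against 50.3% of all genes) in O1 and at 19 (57.6%, against 35.4%) in O2. It was found at 12 (36.4%, against 27.8%) in K1 and at 31 (93.9%, against 74.3%) in K2. All 4 shares were above those of all genes, and the young EC-K4KO libraries were again the lowest and the highest.

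Weighted to the lengths of the members, the shares of all genes were 72.5, 54.8, 45.6 and 89.7%, or 23.9, 18.1, 15.1 and 29.6 genes. The members lay above that number in both old WT Cre libraries and K2 and below it in K1. The group means were 22.5 ± 4.95 members (old WT Cre) and 21.5 ± 13.4 (young EC-K4KO; SD, n = 2), a difference of -1.0 against a pooled SD of 10.1. Its sign turned when O1 was left out (2.5), when K1 was left out (8.5) and when peaks that were mostly repeat sequence were left out (1.5).

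The number of body peaks per length was close to that of all genes. Pooled over the members there were 3.40, 1.49, 1.15 and 10.8 peaks per 100 kb of body in O1, O2, K1 and K2, against 3.38, 1.56, 1.25 and 9.89 over all genes. Ltbp1, the longest member, had 12, 2, 6 and 34 body peaks in these libraries. Tgfbr3 had 5, 2, 3 and 27, and Smad3 had 6, 4, 1 and 20. In each of these genes K2 had the most, and K1 did not exceed O1.

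**Figure D4:**
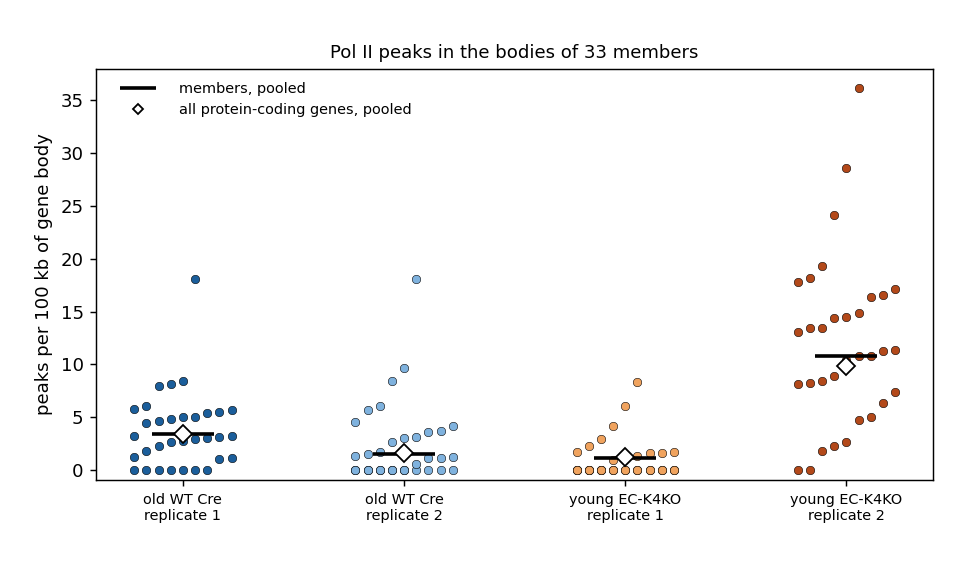
Pol II peaks per 100 kb of gene body (y axis) in the 4 libraries (x axis), with 1 point for each of the 33 members that have a body outside the promoter windows. Black lines are the members pooled and diamonds all protein-coding genes pooled; the lines and diamonds nearly coincide in every library, at 3.40 and 3.38 in old WT Cre replicate 1 and at 10.8 and 9.89 in young EC-K4KO replicate 2.

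A body peak in all 4 libraries was found at 8 members (17.0% of all genes; 32.1% at the members' lengths), namely Tgfb1, Bmp6, Acvr1, Tgfbr2, Tgfbr3, Smad3, Smurf1 and Ltbp1. In both old WT Cre libraries there were 16 (28.8% of all genes) and in both young EC-K4KO libraries 12 (26.6%). Weighted to the members' lengths, the shares of all genes came to 16.2 and 14.8 genes in a set of this size. The count in both old WT Cre libraries thus lay near that number, and the count in both young EC-K4KO libraries below it. No member had a body peak in both libraries of 1 group and in neither of the other, in either direction (0.512% of all genes were split towards the O libraries and 2.81% towards the K libraries). Bmp2 and Tgfbr1 had body peaks in 1 library (22.4% of all genes; 12.6% at the members' lengths) and Id2 and Id3, both short genes, in none (21.0%; 8.13% at the members' lengths). The peaks in several libraries were mostly at different places. Merged over the libraries they made 360 regions, of which 332 were held by 1 library, 230 of them by K2. K2 had 254 body peaks in the members, against 80, 35 and 27 in O1, O2 and K1. The matching share over all genes is not given, so this cannot be called a trait of the members.

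Of the 360 regions, 307 had the summit of their highest peak in an intron. Exons made up 5.83% of the bases of the bodies, while 7.5, 31.4, 11.1 and 15.0% of the body peaks had a summit in an exon in O1, O2, K1 and K2. The exonic share of the peaks was above that of the bases in all 4 libraries, from 6 of 80 peaks in O1 to 11 of 35 in O2. Peaks that crossed the edge of a promoter window were counted here too. The exonic share of body peaks over all genes is not given, so this cannot be called a trait of the members.

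Among the 360 regions, 4 were held by exactly 3 libraries. An intronic region of Tgfbr3 (chr5:107248438-107248667), 52.2% of it soft-masked, was held by both old WT Cre libraries and K2, with 6.20-, 6.34- and 5.22-fold enrichment. The other 3 lay in introns of Smad4 within chr18:73689555-73698849 and were held by O1 and both young EC-K4KO libraries. The fold enrichment of the highest peak in each was 2.94 to 5.63 in O1, 4.10 to 5.10 in K1 and 5.12 to 9.09 in K2. In the first 2 of the 3 (chr18:73689555-73691490 and chr18:73691944-73692718) every peak was 100% soft-masked, and in the last (chr18:73698523-73698849) none of the peaks held soft-masked bases. O2 had no body peak in Smad4.

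Repeats made up less of the member peaks than of the whole lists. Peaks with 50% or more soft-masked bases were 23.8, 17.1, 18.5 and 11.4% of the body peaks of the members in the 4 libraries in the same order, against 32.6, 37.1, 28.5 and 18.8% for the bodies of all genes. Without them, body peaks were left at 24, 16, 12 and 31 members (against 41.3, 27.0, 23.1 and 70.0% of all genes) and promoter peaks at 7, 11, 3 and 30 (against 23.5, 23.4, 10 and 65.6%). Tgfb1 and Tgfbr3 then no longer had a body peak in all 4 libraries, which left 6 members (11.4% of all genes, from 17.0%).

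Another 51 pathway genes, among them further ligands, receptors, antagonists and targets, followed the order of the libraries seen over all genes. A promoter peak was found at 19, 13, 6 and 46 of them in O1, O2, K1 and K2 (37.3, 25.5, 11.8 and 90.2%, against 25.6, 24.5, 10.6 and 67.5% of all genes). A body peak was found at 29, 21, 17 and 43 (56.9, 41.2, 33.3 and 84.3%, against 50.3, 35.4, 27.8 and 74.3%). None had promoter peaks split by group (0.787 and 3.1% of all genes did, towards the O and the K libraries). Bmpr1b, a type I BMP receptor, and Fst, which encodes the activin antagonist follistatin, had a promoter peak in all 4 libraries, as 2.22% of all genes did. The best peak of Bmpr1b had 5.07-, 7.08-, 4.78- and 9.02-fold enrichment in that order, and the best peak of Fst had 5.26-, 6.95-, 5.16- and 5.32-fold. Inhba, an activin subunit, and Fkbp1a, which encodes a protein that binds type I receptors, had body peaks in K1 and K2 but not in O1 or O2, as 2.81% of all genes did.

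The promoters of the members were rich in GC. RefSeq promoter sequences (250 bases before to 50 after the start, GRCm38.p6) were held for 25 of the 34 members, as 31 windows, with a median GC of 67.7% against 57.0% over 20143 windows of all genes. Both strands were searched for 4 motifs. GGCGCC, a GC-rich Smad element, was in 12 windows (38.7%, against 15.8% of all windows), at genes such as Tgfbr1, Bmpr2 and Smad5. CAGAC, the Smad box, was in 13 (41.9%, against 48.3%). CCGGAAG, the core of ETS sites, was in 2 (6.45%, against 11.9%), at Acvr2a and Bmp4. CACACCC, an element bound by Krüppel-like factors, was in 3 (9.68%, against 8.2%), at Tgfb2, Tgfbr1 and Id3. These are matches of letters, the motifs differ in GC content as the windows do, and binding was not measured.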

How the data were processed

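Pol II ChIP-seq peaks were analysed for 4 libraries of flow-sorted brain ECs, 2 old WT Cre and 2 young EC-K4KO. Reads had been trimmed by the authors with TrimGalore, mapped to mm10 with Bowtie2 and stripped of duplicates, and they called peaks with MACS2 (version 2.2.7.1 in the file headers; paired fragments, no control, q below 0.01), library by library. The deposited tables give for each peak the pileup (a signal: fragments over the summit), its fold enrichment as a ratio to the local background, and −log10 of the p-value and of the q-value. The other deposited peak and summit files held the same peaks and were not used further. A gene without a called peak cannot be told from one whose peak missed the threshold at that depth, and the smallest pileup called was 13, 8, 9 and 7 fragments in O1, O2, K1 and K2.

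Peaks were assigned with Python 3.11.15 and pandas 2.3.3 to TSSs and spans of protein-coding genes, with at least 1 bp of overlap. The calling functions were tested on simulated peaks. No test over members was made. The members and lists were chosen with earlier results of these data known. Every member was to be accounted for, with full values for those with promoter peaks in all 4 libraries or split by group and for the 2 best-ranked by q in each library; the others were named by role. Other pathway genes were named where they had peaks in all 4 libraries or split by group, and body regions where 3 libraries or more held them, of which 1 is not reported here. 1 pathway gene listed as Ctgf was matched as Ccn2. Alternatives were a q of 1e-05, 4-fold enrichment, lists of equal length, windows of 500 and 3000 bp, summits, TSSs of all transcripts, whole spans, and 20 or no length classes. Leaving out peaks with 50% or more soft-masked bases was added after the data were seen.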

Additional observations from a re-analysis of the deposited data

How the results depend on the processing

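No paired analysis was possible because no count here comes from a test, and no label ties a replicate number of one group to the same number of the other. At a q of 1e-05, members with a promoter peak in both old WT Cre libraries went from 3 to 0 (all genes from 10.1 to 3.78%) and in both young EC-K4KO libraries from 2 to 1 (9.13 to 2.64%); body counts went from 16 to 8 in both old WT Cre (28.8 to 17.1%), from 12 to 5 in both young EC-K4KO (26.6 to 11.3%) and from 8 to 2 in all 4 libraries (17.0 to 6.43%). The promoter count in both young EC-K4KO libraries was 1 at 4-fold enrichment (5.51% of all genes), 0 with lists of equal length (5.21%), 0 in a window of 500 bp (6.21%) and 4 in one of 3000 bp (12.3%), where 1 member (Smad7) had one in every library (3.41%). With lists of equal length the split was held by Bmpr2, with a peak in O1 and O2 but not in K1 or K2 (1.8% of all genes; 1.99% for the opposite split, with 0 members). The difference in mean promoter count was -2.5 with lists of equal length, and the difference in mean body count 1.5 without peaks that were mostly repeat. With no length classes the expected promoter shares of O1 and O2 were 25.6 and 24.5%, and the body shares 50.3 and 35.4%. The body share of K1 went from 45.6 to 27.8%, which puts its members (36.4%) above rather than below it.

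When each library was left out in turn, promoter counts ranged from 3 to 11 (all remaining old WT Cre libraries; all genes 10.1 to 25.6%), from 2 to 30 (all remaining young EC-K4KO libraries; 9.13 to 67.5%) and from 0 to 3 (all remaining libraries; 2.32 to 9.24%), and their mean difference from -6.5 to 20.5. Body counts ranged from 16 to 26 (28.8 to 50.3%), from 12 to 31 (26.6 to 74.3%) and from 8 to 16 (17.0 to 28.3%), and their mean difference from -10.5 to 8.5. The upper end of the young EC-K4KO counts and of the counts over all libraries came without K1, and -6.5 and -10.5 without K2. Of the numbers of libraries with a promoter peak, given for single members, 58 moved by more than 1.5 times and 214 did not, and lists of equal length gave 22 of those moves. Depth and the number of peaks called limit each statement on a member without a peak; their part in the differences between libraries was not tested.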
